A study of Mus musculus with 2 samples.

Results

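Mki67, Ube2c, Tpx2, Cdk1, Stmn1, Ccnd1 and Cdkn1a are 7 of the 500 genes imaged in these sections, and they were chosen by name as genes of the cell division cycle. Mki67 encodes the Ki-67 protein that coats mitotic chromosomes. Ube2c encodes a ubiquitin-conjugating enzyme of the anaphase-promoting complex, Tpx2 a spindle assembly factor, Cdk1 the kinase that drives entry into mitosis and Stmn1 the microtubule-destabilising protein stathmin. Ccnd1 encodes cyclin D1, which acts before DNA replication, and Cdkn1a encodes a cyclin-dependent kinase inhibitor induced by p53. As background, transcripts of the late cell cycle genes accumulate from DNA replication to mitosis, so they mark dividing cells. The developing liver hosts red blood cell formation, in which erythroid precursors divide rapidly, whereas hepatocytes of an adult liver at rest rarely divide.

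MERFISH, which reads barcoded RNA molecules one at a time by imaging, was applied to 2 mouse liver sections, labelled as replicates 1 and 2 and forming 1 group. The livers were snap frozen, and 10 µm cryostat sections were fixed on the imaging slides. Both labels also carry the tag 2d, whose meaning is not explained, and it was not read as an age or a time point. No age, strain, genotype or treatment is spelled out for either section. Whether separate animals were used is not stated either, so p-values measure only counting error and the spread between these sections. That spread may be technical. Treatments of mice bearing liver metastases appear in the text that accompanies the series, but nothing links them to a section, and none was assigned. Section 1 held 26037 segmented cells, of which 9209 with at least 10 gene counts were kept, and section 2 held 85929, of which 16290 were kept. The median of kept cells was 27 gene counts in section 1 and 15 in section 2. Each kept cell was put into a group by counts of marker genes, at least 3 counts from at least 2 markers that made up at least 10% of its counts for groups other than hepatocytes. Of 22 erythroid markers listed, 4 are on the panel, Epor, Car2 and Klf1 among them, and all 4 were detected in the erythroid group of both sections, as were all 10 hepatocyte markers on the panel in hepatocytes. These markers define the groups, so their detection and high share there are no separate check of the group names. Each group name below stands for cells that met this marker rule.

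In section 1 and section 2 the hepatocyte group held 4541 and 5974 cells, the erythroid group 223 and 91, the mesenchymal group 140 and 173 and the monocyte and neutrophil group 113 and 51, and these 4 groups were tested. Macrophages (37 and 30 cells), endothelial cells (122 and 31) and B lineage cells (140 and 42) were under 50 cells in section 2 and are described by their levels. Another 3871 cells (42.0%) of section 1 and 9833 (60.4%) of section 2 fell in no group. Erythroid markers made up 1386 and 1731 per 10000 gene counts in the erythroid group against 78.6 and 36.5 in hepatocytes. Hepatocyte markers made up 514 and 640 per 10000 in the erythroid group against 2099 and 2054 in hepatocytes, and the part of these hepatocyte transcripts in the values below was not tested.

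Promoter sequences are shown because Mki67, Ube2c and Cdk1 belong to the class of late cell cycle genes whose promoters are known to carry CCAAT boxes and a cell cycle homology region (CHR), while Cdkn1a is a textbook p53 target. The RefSeq table for GRCm38.p6 held promoters for 4 of the 7 genes, and the 250 bases before each start are printed 5′ to 3′ on the strand of the gene. Tpx2, Stmn1 and Ccnd1 are named only. Capitals mark TTTGAA (the CHR), CCAAT and the p53 half-site, each searched on both strands. The Mki67 promoter lies on the minus strand at chr7:135716380-135716629, that of Ube2c on the plus strand at chr2:164769679-164769928, that of Cdk1 on the minus strand at chr10:69352913-69353162 and the upstream one of Cdkn1a on the plus strand at chr17:29090729-29090978.
Mki67: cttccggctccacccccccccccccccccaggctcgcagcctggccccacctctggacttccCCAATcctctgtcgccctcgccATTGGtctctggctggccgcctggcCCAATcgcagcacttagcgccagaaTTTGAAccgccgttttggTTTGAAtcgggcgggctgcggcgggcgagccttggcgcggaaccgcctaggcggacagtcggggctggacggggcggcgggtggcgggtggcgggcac
Ube2c: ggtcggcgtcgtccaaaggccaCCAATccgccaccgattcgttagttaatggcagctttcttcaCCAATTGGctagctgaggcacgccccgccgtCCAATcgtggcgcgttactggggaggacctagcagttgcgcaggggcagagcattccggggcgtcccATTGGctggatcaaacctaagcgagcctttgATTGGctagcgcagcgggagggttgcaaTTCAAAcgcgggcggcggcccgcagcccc
Cdk1: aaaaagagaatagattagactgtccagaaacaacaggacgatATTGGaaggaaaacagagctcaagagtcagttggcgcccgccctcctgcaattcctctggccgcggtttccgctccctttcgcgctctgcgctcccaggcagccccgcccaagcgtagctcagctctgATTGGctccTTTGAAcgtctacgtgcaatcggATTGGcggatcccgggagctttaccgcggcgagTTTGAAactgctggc
Cdkn1a: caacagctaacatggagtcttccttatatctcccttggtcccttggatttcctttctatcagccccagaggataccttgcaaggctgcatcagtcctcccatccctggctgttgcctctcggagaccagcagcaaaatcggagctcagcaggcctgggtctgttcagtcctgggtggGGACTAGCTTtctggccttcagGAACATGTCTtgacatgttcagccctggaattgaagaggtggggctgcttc
TTTGAA matched 2 times in the Mki67 window, 116 and 98 bases before the start, and CCAAT 3 times. In Ube2c TTTGAA matched 1 time, 29 bases before the start, and CCAAT 6 times, with an overlapping pair of matches on opposite strands. In Cdk1 TTTGAA matched 2 times, 71 and 15 bases before the start, and CCAAT 3 times. The Cdkn1a window held neither, but 2 p53 half-sites, 73 and 51 bases before the start, and its other listed promoter held no match. Of 32851 promoter windows of the same length in the table, 16% held TTTGAA, 33.8% CCAAT and 7.13% the p53 half-site. These matches are letters in a window and not measured binding sites.

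The 5 late cell cycle genes, Mki67, Ube2c, Tpx2, Cdk1 and Stmn1, were highest, as a sum, in the erythroid group of both sections, while Ccnd1 and Cdkn1a were not. All levels below are counts per 10000 gene counts of a group, with exact 95% Poisson intervals that cover counting error only. Levels of single genes are compared between groups for 1 gene at a time and not between genes, since each gene has its own probes. Sums and shares over several genes, also given below, weigh each gene by its counts and so by its probes.

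Mki67 reached 746 per 10000 gene counts in the erythroid group of section 1 (661 of 8866 counts, 690 to 805) and 184 in section 2 (38 of 2062 counts, 130 to 253). In hepatocytes it stood at 86.4 (2090 counts) and 13.6 (186 counts). The erythroid level was the highest of 7 groups in both sections, and its interval overlapped that of no other group. The other 5 groups lay between 57.1 and 147 in section 1 and between 13.8 and 37.2 in section 2, where neighbours in the order had overlapping intervals.

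The 2 sections disagreed on the Mki67 level itself. Section 1 exceeded section 2 by 6.37-fold in hepatocytes, 4.05-fold in erythroid cells, 4.14-fold in mesenchymal cells, 3.10-fold in monocytes and neutrophils and 8.83-fold in kept cells of no group. Ube2c and Stmn1 went the other way, with section 2 above section 1 by 1.32-fold and 2.07-fold in hepatocytes and by 1.94-fold and 2.47-fold in erythroid cells. A sum that includes Mki67 is thus mostly Mki67 in section 1, where the gene supplied 77.5% of all counts of the 7 genes in erythroid cells, against 35.2% in section 2. No label explains the gap, and its origin was not tested.

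Ube2c stood at 82.3 per 10000 gene counts in erythroid cells of section 1 (73 counts) and 160 in section 2 (33 counts), against 9.42 and 12.5 in hepatocytes. Erythroid cells ranked highest in both sections. Their interval stood clear of the next group in section 1 but overlapped that of 42 B lineage cells in section 2 (5 counts). Tpx2 stood at 49.6 (44 counts) and 14.5 (3 counts) in erythroid cells against 7.27 and 4.01 in hepatocytes, so its value in section 2 rests on 3 molecules. Erythroid cells again ranked highest, with intervals overlapping the next group in both sections.

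Stmn1 stood at 45.1 (40 counts) and 112 (23 counts) in erythroid cells against 10.4 and 21.6 in hepatocytes. In section 2 the 30 macrophages reached 119 on 7 counts, above the erythroid level but within its interval. The erythroid interval of Stmn1 in section 1 (32.2 to 61.4) overlapped that of monocytes and neutrophils (10.2 to 34.6). Cdk1 stood at 25.9 (23 counts) and 43.6 (9 counts) in erythroid cells against 8.06 and 8.16 in hepatocytes, whose levels in the 2 sections were nearly equal. In section 2 the 51 monocytes and neutrophils reached 55.9 on 6 counts, above the erythroid level and with an overlapping interval. The erythroid Cdk1 interval of section 1 (16.4 to 38.9) overlapped those of macrophages, monocytes and neutrophils, mesenchymal cells and B lineage cells.

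Ccnd1 stood at 5.64 (5 counts) and 9.70 (2 counts) in erythroid cells and at 8.80 and 9.11 in hepatocytes. Its highest level in section 1 was 25.5 in endothelial cells (17 counts, 14.9 to 40.9), where section 2 had 0 of 606 counts, with an interval up to 60.9 per 10000. Cdkn1a stood at 7.90 in erythroid cells of section 1 (7 counts) and had 0 of 2062 counts in section 2, with an interval up to 17.9. In hepatocytes it stood at 4.88 and 4.52. Macrophages held the highest Cdkn1a level in both sections, 63.9 (15 counts, 35.8 to 105) and 33.9 (2 counts, 4.11 to 122).

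Blank barcodes, which match no gene, give the background of decoding. In hepatocytes of section 1, 6 of the 7 genes exceeded all 50 blanks and Cdkn1a exceeded 48. In hepatocytes of section 2, Tpx2 and Cdkn1a exceeded 49 and the others all 50. In erythroid cells Mki67, Ube2c, Tpx2, Cdk1 and Stmn1 exceeded every blank in both sections, whereas Ccnd1 exceeded 49.

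**Figure D1:**
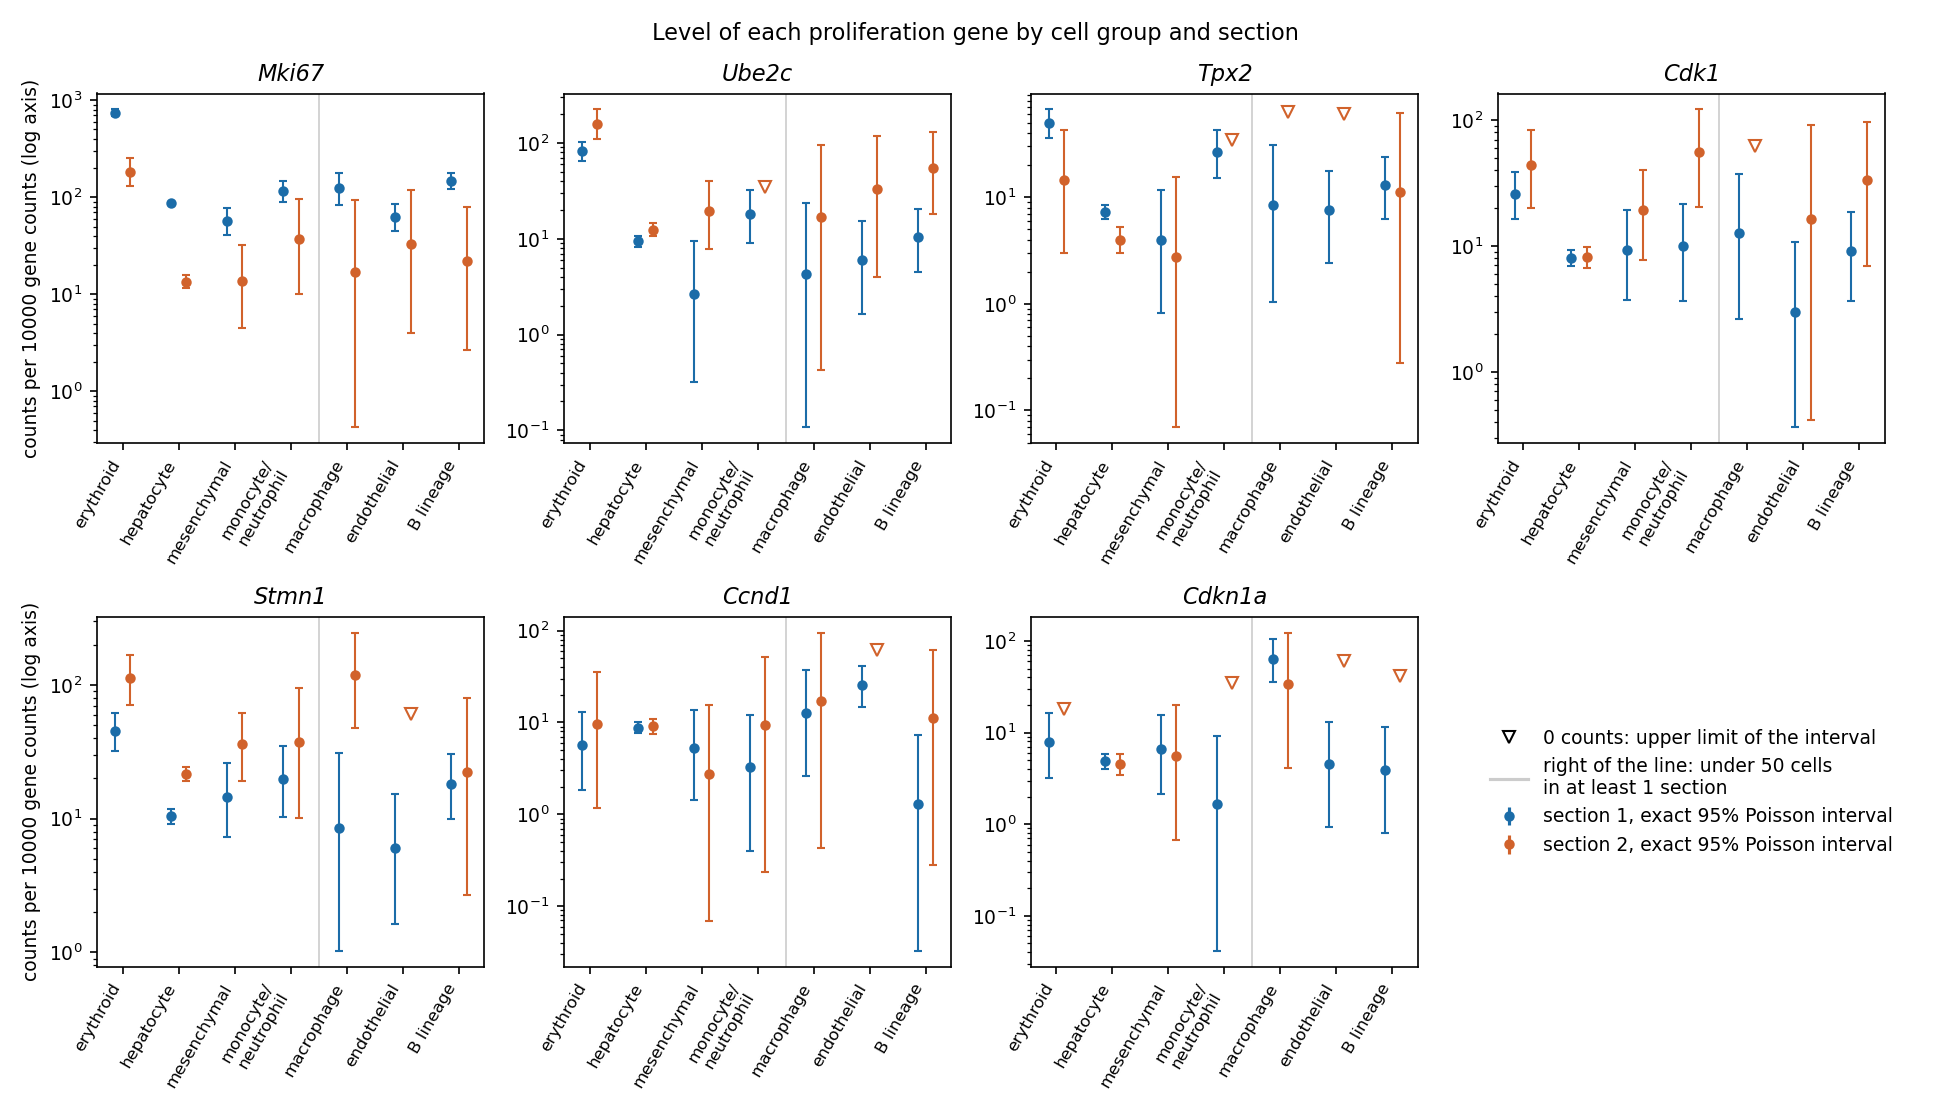
Counts of each gene per 10000 gene counts (log axis) by cell group, in section 1 (blue) and section 2 (orange), with exact 95% Poisson intervals and open triangles for the upper limit of groups with 0 counts. Mki67, Ube2c and Tpx2 are highest in the erythroid group of both sections, Cdkn1a is highest in macrophages, and Mki67 is higher in section 1 in every group.

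Of the 7 genes, 4 were called higher in erythroid cells than in hepatocytes and 0 lower, where 9.97% of 301 tested genes were called higher, 11.6% lower and 21.6% in either direction. The tests ran edgeR's quasi-likelihood test on counts summed per section and group, with section as a block and Benjamini-Hochberg adjustment over all tested genes. All 7 genes passed the filter of at least 50 counts. The log2 rise of Mki67 was 2.89 (SE 0.56, adjusted p = 2.05e-05 by edgeR) and that of Ube2c 2.82 (SE 0.65, adjusted p = 3.56e-04). Both were higher in 2 of 2 sections. Tpx2 rose by 2.01 (SE 0.74, edgeR adjusted p = 0.0362) and Stmn1 by 1.64 (SE 0.64, adjusted p = 0.0476).

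Cdk1, at 1.56 (SE 0.67, edgeR adjusted p = 0.0759), did not pass. Ccnd1, at -0.79 (SE 0.84), and Cdkn1a, at -0.04 (SE 0.91), did not pass either. The median log2 change over all tested genes was -0.81 with TMM scaling, -0.57 without TMM and -0.38 with DESeq2, and the values of the members move with that choice. Without TMM, Mki67 stood at 3.40, Ube2c at 3.38, Tpx2 at 2.53, Stmn1 at 2.23 and Cdk1 at 2.0, and Cdk1 then passed (edgeR adjusted p = 1.07e-04). Across the alternatives in which it could be fitted, the adjusted p of Cdk1 ran from 1.07e-04 to 0.290, and it passed in 7 of them.

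Within sections the direction was the same but the size was not. The ratio of the erythroid to the hepatocyte level was 8.63 and 13.6 for Mki67, 8.74 and 12.8 for Ube2c, 3.22 and 5.35 for Cdk1 and 4.33 and 5.17 for Stmn1 in sections 1 and 2. For Tpx2 it was 6.82 and 3.63, the latter with a counting interval of 0.726 to 11.2. With TMM scaling section 1 alone gave log2 differences of 3.36 for Mki67, 3.32 for Ube2c, 2.95 for Tpx2 and 2.32 for Stmn1. Section 2 alone gave 2.31, 2.22, 0.40 and 0.93 for the same genes in the same order, so under TMM scaling the rise was larger in section 1 for all 4. For Mki67, Ube2c and Stmn1 this order is the reverse of that of the plain ratios. Stmn1 lost its call without the section block (1.41, edgeR adjusted p = 0.268), with cells of at least 5 counts (1.56), with only transcripts near cell centres (1.13) and without cells that carry Wnt4 (1.68). Tpx2 lost its call without the block (2.37, edgeR adjusted p = 0.0727) and with cells of at least 5 counts (1.94, adjusted p = 0.0575).

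**Figure D2:**
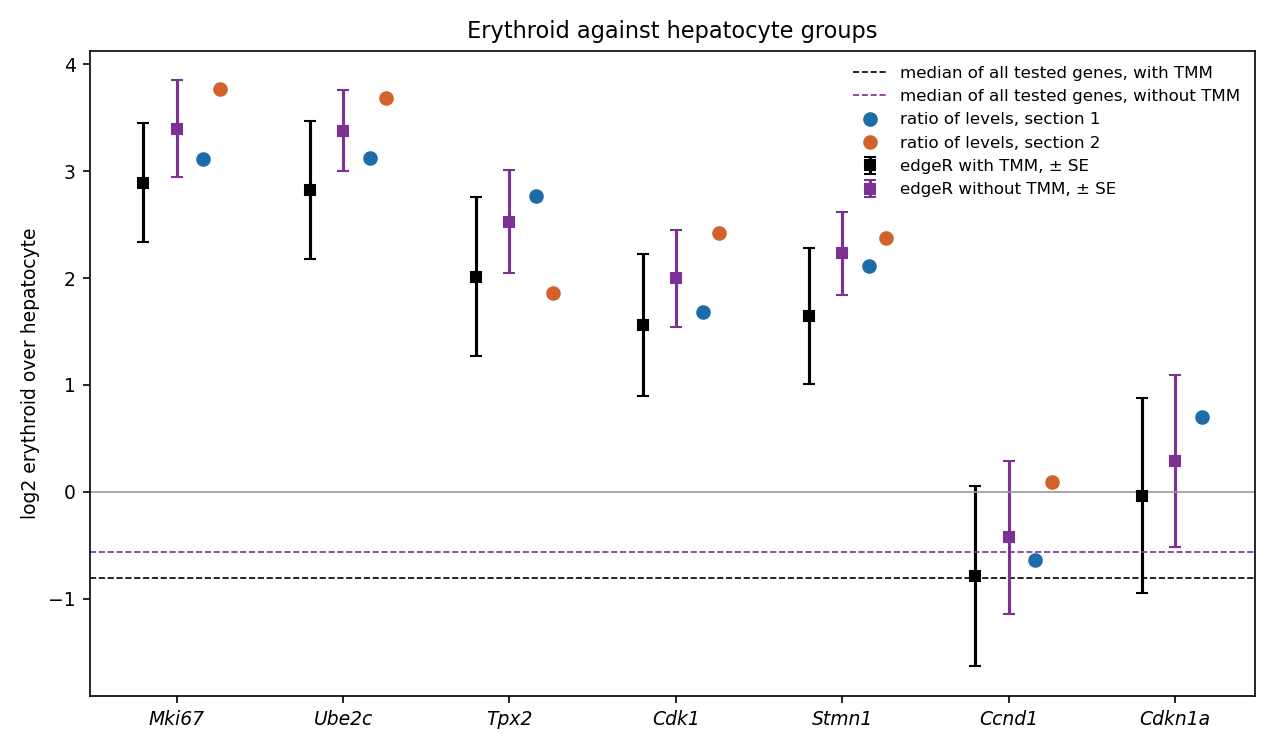
Log2 of the erythroid over the hepatocyte level for each gene: edgeR estimates with and without TMM scaling (squares, ± SE) and the plain ratio of levels in each section (circles, not drawn for Cdkn1a in section 2, with 0 erythroid counts). Mki67, Ube2c, Tpx2, Cdk1 and Stmn1 lie above 1.5 in the edgeR estimates, Ccnd1 and Cdkn1a near the dashed medians of all tested genes or near 0.

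The erythroid group was also set against the remaining tested groups, in contrasts that share the erythroid sums with the contrast above. Against mesenchymal cells, where 7.64% of genes were called higher and 11.6% in either direction, Mki67 rose by 3.72 (SE 0.63, edgeR adjusted p = 5.07e-07), Ube2c by 3.60 (SE 0.79, adjusted p = 2.53e-04) and Tpx2 by 3.45 (SE 0.98, adjusted p = 0.00756). Tpx2 stood at 1.62 in section 2 alone, on 3 erythroid counts and 1 mesenchymal count. Against monocytes and neutrophils, where 6.64% were called higher and 10.6% in either direction, Mki67 rose by 3.15 (SE 0.62, edgeR adjusted p = 2.68e-05) and Ube2c by 3.31 (SE 0.77, adjusted p = 3.57e-04). Ube2c had 0 of 1074 counts in monocytes and neutrophils of section 2, so the fitted size depends on the prior count. Stmn1, at 1.55 (SE 0.70) and 1.91 (SE 0.73), and Cdk1, at 1.31 (SE 0.78) and 1.22 (SE 0.80), did not pass.

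Mesenchymal cells, and monocytes and neutrophils, gave 0 calls among the 7 genes against hepatocytes by edgeR and by DESeq2, where edgeR called 5.65% and 16.9% of all tested genes in either direction. Over all genes 63 and 91 had an unadjusted p under 0.05, none of them among the 7. These contrasts share the hepatocyte sums with the erythroid one. With TMM scaling the log2 differences were -0.83 (SE 0.60) and -0.25 (SE 0.59) for Mki67, and 0.25 (SE 0.73) and 0.33 (SE 0.76) for Cdk1. A 2-fold lower Mki67, and a 2-fold difference of Cdk1 in either direction, thus lie within about 2 standard errors. A 2-fold higher Mki67 in mesenchymal cells does not under this scaling. The sign for Mki67 in monocytes and neutrophils is the reverse of that of the plain levels. These were 116 against 86.4 in hepatocytes of section 1 and 37.2 against 13.6 in section 2. The median log2 change over all tested genes in that contrast was -0.87 with TMM and 0.07 without.

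A fit that lowered the minimum to 30 cells per group, added after the data had been seen, brought in macrophages, endothelial cells and B lineage cells. There Cdkn1a rose in macrophages over hepatocytes by 2.59 (SE 0.68, edgeR adjusted p = 0.00237), where 5.41% of 314 genes were called higher. The level of 63.9 and 33.9 against 4.88 and 4.52 in hepatocytes had the same direction in both sections, with 2 macrophage counts in section 2. Ccnd1 in endothelial cells over hepatocytes stood at 0.42 (SE 0.65) and did not pass, beside 20.7% of genes called in either direction. Cdk1 passed in this fit for erythroid cells over hepatocytes, at 1.73 (SE 0.54, edgeR adjusted p = 0.00829).

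The order of the groups was recomputed without Mki67 and without Cdk1. Erythroid cells ranked highest in both sections under every one of 7 gene sets, among the 4 tested groups and among all 7. In section 2, however, the erythroid interval overlapped that of macrophages in every set without Mki67. All 7 genes together reached 962 and 524 per 10000 in erythroid cells against 135 and 73.4 in hepatocytes, a log2 ratio of 2.83 and 2.84. Without Mki67 the erythroid sum fell to 217 and 339 against 48.9 and 59.8, a log2 ratio of 2.15 and 2.50. The erythroid sum of section 1 then lay below that of section 2, the reverse of the order of the sums with Mki67.

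Without Cdk1 the log2 ratios of the 7 were 2.88 and 2.88. The sum of Ube2c, Tpx2 and Stmn1, which holds neither Mki67 nor Cdk1, reached 177 (150 to 207) and 286 (218 to 369) per 10000 in erythroid cells against 27.1 and 38.0 in hepatocytes. Its log2 ratio was 2.71 and 2.91 (2.81 ± 0.14, SD, n = 2). The erythroid lead over hepatocytes was therefore present in these 3 genes alone. Macrophages of section 2 reached 136 on 8 counts (58.5 to 267), which overlaps the erythroid interval.

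Below the erythroid group the order was not stable. Monocytes and neutrophils ranked next of the 4 tested groups in both sections for the other 6 gene sets. For Ube2c, Tpx2 and Stmn1 they ranked next in section 1 (64.4 per 10000) and lowest in section 2 (37.2, on 4 counts), where mesenchymal cells ranked next (57.9). The intervals of these groups and of hepatocytes overlapped in section 2. Among all 7 groups macrophages or B lineage cells took the next rank in most sets, macrophages on 8 to 55 counts. In section 2 macrophages took it in every set. In section 1 they took it only in sets that hold Cdkn1a and Ccnd1. There Cdkn1a alone gave 63.9 of their 111 per 10000 for the 7 genes without Mki67. For Ube2c, Tpx2, Cdk1 and Stmn1 macrophages of section 1 stood at 34.1, against 35.2 in hepatocytes.

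When each gene was divided by its mean over the 4 tested groups, so that no abundant gene dominated, erythroid cells again ranked highest in both sections. Their mean relative level of Ube2c, Tpx2 and Stmn1 was 2.40 and 2.74, against 0.377 and 0.477 in hepatocytes. For all 7 genes without Mki67 it was 1.94 and 1.81, against 0.699 and 0.778.

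**Figure D3:**
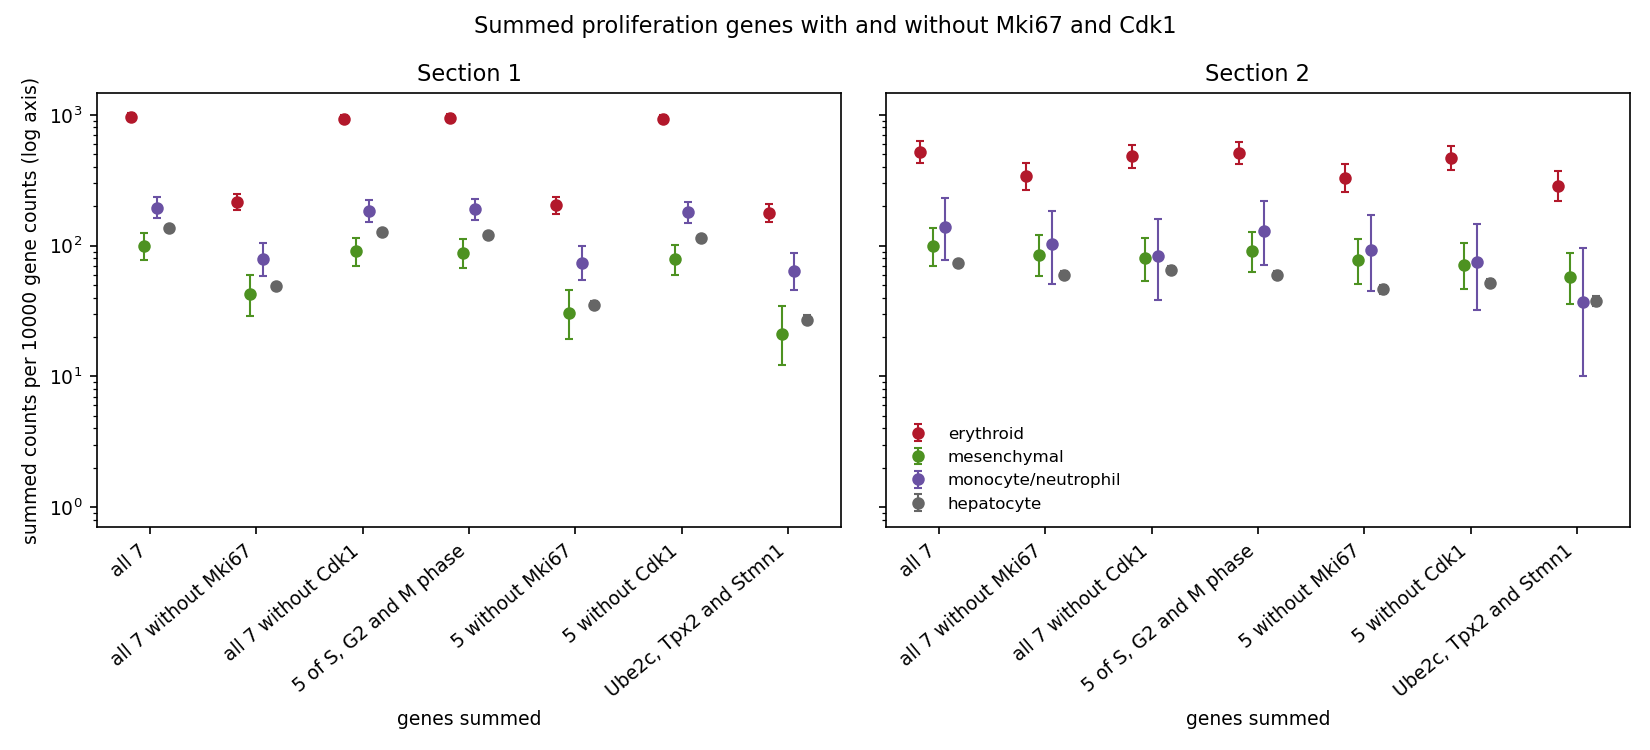
Summed counts per 10000 gene counts (log axis) of 7 sets of the proliferation genes in the 4 tested cell groups, with exact 95% Poisson intervals, by section. Erythroid cells (red) lie highest in every set, from 177 to 962 in section 1 and from 286 to 524 in section 2, and the other 3 groups change places between sets.

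The other cell cycle genes of the panel gave a list of 8 genes outside the members, of which 7 passed the filter. In erythroid cells over hepatocytes 5 of these 7 were called higher by edgeR and 0 lower, beside 9.97% and 11.6% of all tested genes. They were E2f2, a transcription factor of DNA replication genes, at 3.33, the kinetochore genes Cenpe at 3.22 and Cenpf at 3.15, the spindle gene Nusap1 at 2.87 and the antiproliferative gene Btg2 at 2.74. The thymidine kinase gene Tk1, at 2.11 (SE 0.87), and the kinase inhibitor gene Cdkn1b, at 1.95 (SE 0.84), did not pass. In section 2 the erythroid levels of Cenpe, Cenpf and Nusap1 rested on 2 counts each.

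Cells were also compared by whether they held any transcript of these genes. Mki67 was present in 80.3% of erythroid cells of section 1 and 30.8% of section 2, against 22.5% and 2.85% of hepatocytes, at median depths of 33 and 21 gene counts for erythroid cells and 38 and 20 for hepatocytes. With every cell thinned to 10 gene counts the shares were 48.9% and 13.2%, against 7.25% and 1.36%. At least 1 count of Ube2c, Tpx2, Cdk1 or Stmn1 was present in 47.1% and 52.7% of erythroid cells and in 14.4% and 8.99% of hepatocytes. Thinned, these shares were 20.2% and 26.4% against 3.22% and 4.29%. For Mki67 the erythroid share was thus lower in section 2, and for the other 4 together it was not.

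Counts per positive cell differed between the sections for Mki67. Erythroid cells with Mki67 held a mean of 3.69 counts in section 1 and 1.36 in section 2, and hepatocytes 2.05 and 1.09. The highest count in a cell of these groups was 21 in section 1 and 5 in section 2. For Ube2c the means in positive erythroid cells were 1.40 and 1.27, and for Stmn1 1.25 and 1.15.

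The share of erythroid cells holding Ube2c, Tpx2, Cdk1 or Stmn1 was set beside their Mki67 status. With Mki67 counts left out and the other counts thinned to 9 per cell, the share was 14% with Mki67 against 6.82% without it in section 1 and 39.3% against 22.2% in section 2. The exact binomial intervals overlapped in both sections, and no test was run on cells. In hepatocytes the thinned shares were 5.98% against 2.39% and 8.24% against 3.69%, with intervals that did not overlap. Unthinned erythroid shares were 52.5% against 25% (median depths 37 and 23.5) and 67.9% against 46.0% (24 and 20), and unthinned hepatocyte shares 28.7% against 10.2% (57 and 33) and 21.8% against 8.61% (25 and 20). In erythroid cells of section 2 without Mki67, 29 of 63 still held 1 of the other 4 genes.

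Over all kept cells, the counts of each gene in cells positive for another were set against its share of their other counts. In cells with Mki67, Ube2c was 1.89 and 4.27 times that share in sections 1 and 2, Tpx2 1.88 and 3.62 times, Stmn1 1.68 and 2.27 times and Cdk1 1.54 and 1.84 times. Ccnd1 in the same cells was at 0.933 and 0.694, and Cdkn1a at 1.20 and 0.850. The ratios of Ccnd1 were thus below 1 in both sections and those of Cdkn1a on either side of 1, while those of the mitotic genes were above 1. In cells with Cdkn1a, the Kupffer cell lectin gene Clec4f led all genes in both sections, at 3.64 and 4.39. These ratios describe pooled cells and have no test.

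In hepatocytes Mki67 was higher close to erythroid cells. Hepatocytes were split in each section into 3 equal bins of distance to the nearest erythroid cell, with median distances of 53.9, 121 and 234 µm in section 1 and 72.6, 175 and 400 µm in section 2. From near to far Mki67 stood at 116, 79.4 and 55.2 per 10000 gene counts in section 1 and at 18.2, 14.8 and 6.11 in section 2. It declined at each step in both sections. The near bin exceeded the far bin by a log2 difference of 1.08 for Mki67 (SE 0.12, adjusted p = 4.74e-15 by edgeR). Section 1 alone gave 1.04 and section 2 alone 1.34. The fit had 6 sums and 2 residual degrees of freedom, and the size of its p-value was not stable. With groups from at least 2 marker counts a like estimate (1.08, SE 0.09) had an edgeR adjusted p of 0.00104. With cells of at least 5 counts (1.16, SE 0.15) it was 0.00523.

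Of the 7 genes Mki67 was the one called, where 2.06% of 291 tested genes were called higher and 3.44% in either direction. Cdk1 stood at 0.54 (SE 0.29) and Ube2c at 0.34 (SE 0.25), both positive in 2 of 2 sections, and did not pass. Tpx2, Stmn1, Ccnd1 and Cdkn1a lay between -0.16 and 0.08. The other genes called higher were Ambp, Dennd4a, Cd24a, E2f2 and Cd82, with E2f2 at 0.74 (SE 0.14) as the 1 called of the 7 other cell cycle genes.

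Erythroid marker transcripts in the same hepatocytes moved with distance too. From near to far they stood at 97.7, 69.4 and 64.4 per 10000 in section 1 and 45.8, 33.6 and 28.0 in section 2, so both declined together. In hepatocytes with 0 erythroid marker counts Mki67 stood at 0.91 near minus far (edgeR adjusted p = 8.65e-05). Without the section block Mki67 did not pass (edgeR adjusted p = 0.996), and 0 genes passed or reached 0.05 unadjusted, while DESeq2 with the block called 2 genes, Mki67 among them. When cell volume replaced total counts as the offset, Cdk1 (1.06) and Ube2c (0.86) were called beside Mki67 (1.57), but 16.8% of all tested genes were then called higher and 0 lower, with a median log2 change of 0.42.

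**Figure D4:**
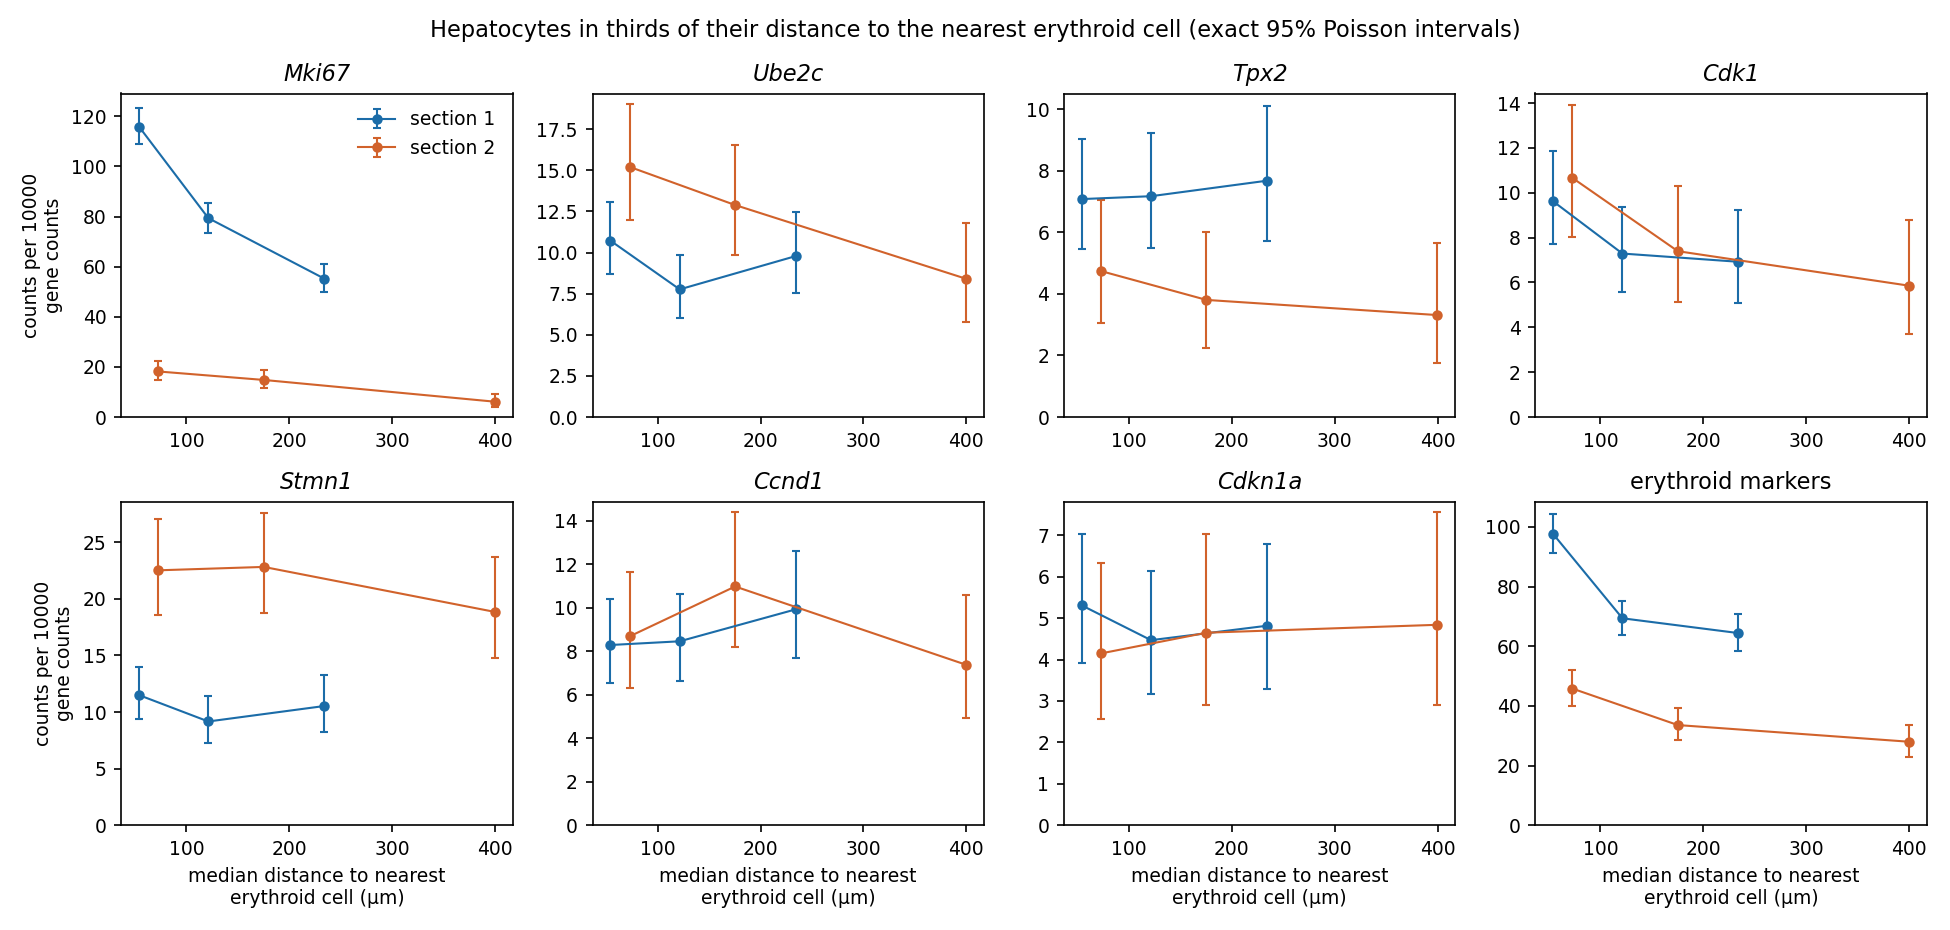
Counts per 10000 gene counts in hepatocytes against the median distance (µm) of each of 3 bins to the nearest erythroid cell, for the 7 genes and for the summed erythroid markers, in section 1 (blue) and section 2 (orange) with exact 95% Poisson intervals. Mki67 declines from 116 to 55.2 in section 1 and from 18.2 to 6.11 in section 2, and the erythroid markers decline as well.

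Along the axis from portal to central veins none of the 7 genes was called in hepatocytes. The axis was scored from neighbours' pericentral (Glul, Cyp2e1, Gulo) and periportal (Pck1, Ass1, Hsd17b13) transcripts, and edgeR called 16 of 246 genes (6.50%), with 35 at an unadjusted p under 0.05, while DESeq2 called 14. Ube2c had the largest estimate in size, at -0.53 (SE 0.28, edgeR adjusted p = 0.403) pericentral minus periportal. From the periportal to the pericentral bin it stood at 11, 10.5 and 5.11 per 10000 in section 1 and at 12.5, 12 and 12.1 in section 2, so the difference lay in section 1. Ube2c was called with a radius of 100 µm (-0.84, edgeR adjusted p = 0.00322) and with at least 5 marker counts per hepatocyte (-1.09, adjusted p = 0.0498), and its adjusted p over the alternatives ran from 0.00322 to 0.999. Mki67 stood at -0.10 (SE 0.12).

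In section 2 much of Cdk1 lay in cells that carried Wnt4, a signalling ligand gene. Of its 552 counts in kept cells, 229 (41.5%) lay in the 285 cells with a Wnt4 count, which made up 1.75% of kept cells and 2.11% of gene counts. The other 6 genes had between 0 and 2.78% of their counts there, while Cdk1 had 3.31% in the Wnt4 cells of section 1. In the 65 cells of section 2 with at least 3 Wnt4 counts Cdk1 reached 1293 per 10000 gene counts (1126 to 1478), against 11 in cells with 0 Wnt4 counts. In those 65 cells Ube2c had 2 counts and Mki67, Tpx2, Stmn1, Ccnd1 and Cdkn1a had 0 of 1663.

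None of the 65 cells belonged to the erythroid group, and their erythroid markers held 7 counts in all. Blank barcodes took 1.19% of their counts against 0.305% in cells with 0 Wnt4 counts. In section 2 the genes that shared cells with Cdk1 most were Wnt4 (23.5 times its share), Cd8b1 (20.3), Vldlr (18.3) and Itga2 (15.3). In section 1 they were Cenpe (2.81), Cst7 (2.71), Slc16a3 (2.67) and Cenpf (2.46). Up to 22 Cdk1 counts lay in a cell of section 2, against 3 in section 1.

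Leaving out cells with a Wnt4 count, an alternative added after the data had been seen, moved the erythroid value of Cdk1 from 1.56 to 1.60 (edgeR adjusted p = 0.0802). The difference between erythroid cells and hepatocytes was as large without them. In section 2, 49 cells that met the marker rule for Wnt4, Eps8l3, Dpp4 and Lamp3 held 14 Cdk1 counts and 0 of the other 6 genes. Unlike the 65 cells above, these 49 held erythroid markers at 1816 per 10000, beside 1731 in the erythroid group, with 2 of the 4 markers at 0, and blank barcodes took 10.6% of their counts. The part of either in the Cdk1 level was not tested. The sum of all 7 genes in these 49 cells was thus Cdk1 alone, at 111 per 10000, and it was 0 without Cdk1.

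**Figure D5:**
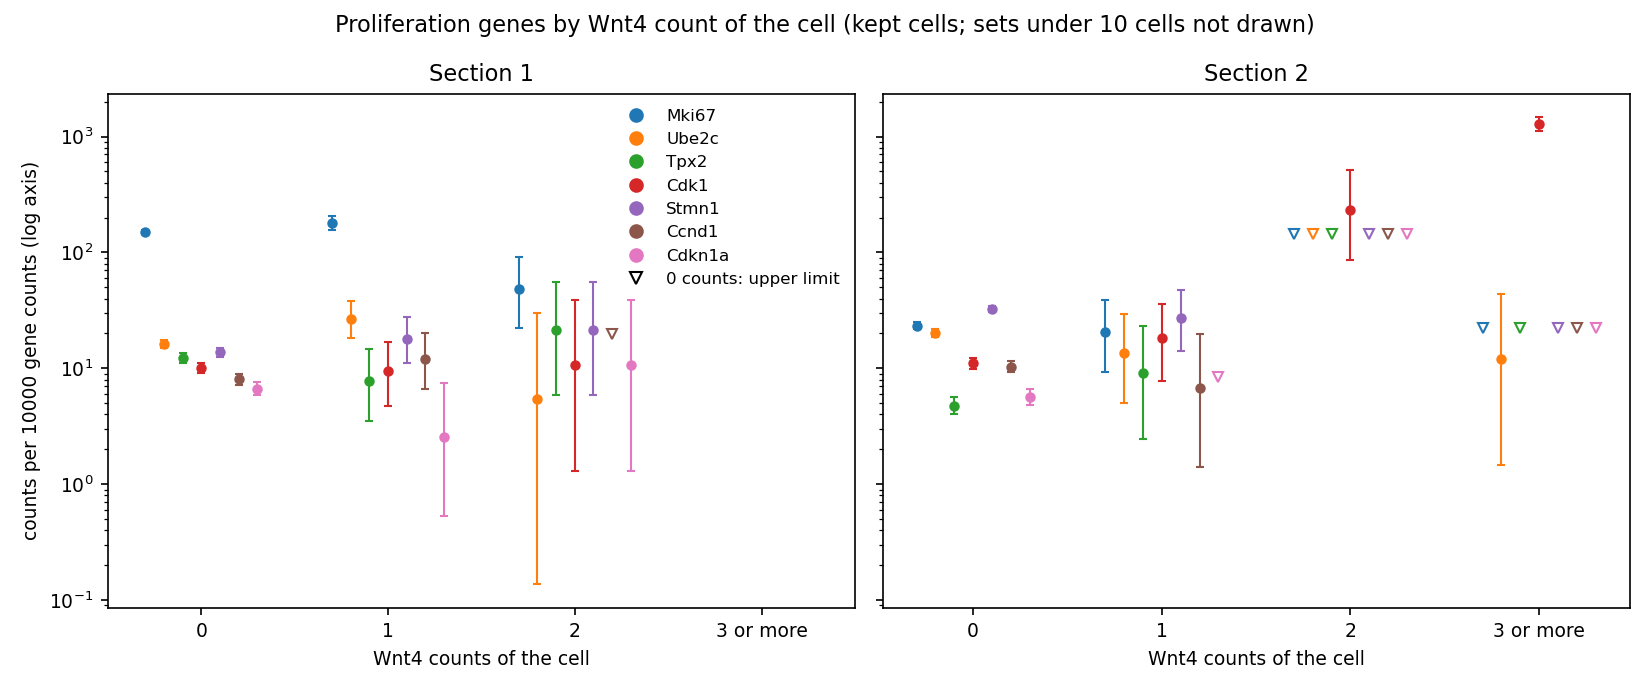
Counts of each gene per 10000 gene counts (log axis) in kept cells split by their Wnt4 count, with exact 95% Poisson intervals and open triangles for the upper limit at 0 counts, in section 1 (left) and section 2 (right). In section 2 Cdk1 rises from 11 to 1293 in cells with 3 or more Wnt4 counts while 5 of the other genes have 0 counts there, and in section 1 Cdk1 lies between 9.45 and 10.8 in cells with 0 to 2 Wnt4 counts, with 1 cell at 3 or more (not drawn).

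Not all transcripts of these genes lay in kept cells. Of decoded Mki67 transcripts 21.8% in section 1 and 23.6% in section 2 lay outside segmented cells, against 40.1% and 34.4% of all genes, and for the 7 genes the share ran from 21.8% to 37.4% and from 23.6% to 43.6%. Cdk1 was highest in both sections. Kept cells of no group held 48.4% and 65.8% of the Mki67 counts of kept cells, beside 27.7% and 50.7% of all gene counts of kept cells.

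Over the 8 points given by 4 groups and 2 sections, the genes most like each member in log2 level were found among 253 others. Mki67 was most like Ctsb (Pearson's r = 0.975), Susd6 (0.939) and Itga4 (0.934), and Ube2c like Apobec3 (0.923), Dtx3l (0.909) and Cdk2ap2 (0.897). Tpx2 was most like Apobec3 (0.927), Cdkn1b (0.921) and Kctd3 (0.919). Cdk1 was most like Ubb (0.933), Zbtb7a (0.830) and Psmc1 (0.809), and Stmn1 like Psmd2 (0.927), Ubb (0.912) and Zbtb7a (0.906). Ccnd1 was most like Pck1 (0.850), Asl (0.824) and Gbp7 (0.803), and Cdkn1a like Angpt1 (0.937), Zfp281 (0.915) and Zfp318 (0.883). Points of 1 section share its depth and scaling, so these values are descriptions of 8 sums.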

How the data were processed

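Tables of transcript counts per segmented cell and gene were deposited by the authors for both sections, with raw whole-number counts and no normalization, per the file headers. The DNA stain intensity of each cell was deposited as a raw summed image signal, per the file headers. Sections of 10 µm were imaged by MERFISH per the labels' protocols, and the decoding and segmentation software is not given in the sources used here. Lengths carry no unit in the file headers and were taken as µm.

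Cells with at least 10 gene counts and a volume of at least 50 were kept, and 0 cell identifiers were found in both sections. No doublet caller was run. Counts were summed per section and cell group and tested by the quasi-likelihood method of edgeR 4.0.16 (R 4.3.3, limma 3.58.1), blocking on section and scaling by TMM. All gene counts of a sum gave its library size, the marker genes were left out of the tests, and genes needed at least 50 counts. Groups needed 50 cells in each section. Section truly pairs the groups, since all groups of a section were imaged together. Alternatives used DESeq2 1.42.0, no TMM, no filter, no block, other cell, marker and distance settings and each section alone. Summaries and figures used Python 3.11.15, numpy 2.4.6, pandas 2.3.3, scipy 1.17.1 and matplotlib 3.10.9, and the edgeR steps were tested on simulated data. For erythroid cells over hepatocytes these recovered 33.3% of simulated 2-fold and 66.2% of 4-fold changes, and called 3.82% of unchanged genes. A missing call between groups therefore does not exclude a 2-fold change. Recovery of 2-fold changes was 73.8% by position and 49.3% by distance.

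The 7 genes and the lists were chosen with earlier results of these data known. The text names the 7 genes, the 3 most correlated of 253 genes with at least 50 counts in each section for each, the other cell cycle genes of the panel, and genes leading a comparison, which were chosen after their values were seen. Intervals cover counting error only.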

Additional observations from a re-analysis of the deposited data

Results flagged for a closer look

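Cdk1 stood at 1293 per 10000 gene counts in the 65 cells of section 2 with at least 3 Wnt4 counts, against 11 in cells with 0 Wnt4 counts. Kept cells in no group, which enter no comparison, held Mki67 at 265.5 in section 1 and 30.07 in section 2, above the hepatocyte levels of 86.4 and 13.6. The same cells held erythroid markers at 273 and 110 per 10000 gene counts, against 78.6 and 36.5 in hepatocytes, and the part of these cells' makeup in the Mki67 level was not tested. Ube2c in the same cells stood at 28.61 and 24.93, against 9.42 and 12.5 in hepatocytes.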

How the results depend on the processing

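Against hepatocytes 4 member calls became 2 without the replicate block and 2 with cells of at least 5 counts, where 6.64% and 9.06% of all tested genes were called higher. Without the block, Mki67 (3.21, edgeR adjusted p = 0.0148) and Ube2c (2.72, edgeR adjusted p = 0.0266) were still called, and Tpx2 and Stmn1 were not. By lobule position 0 calls became 1 with at least 5 marker counts and 1 with a radius of 100 µm, both Ube2c, where 5.74% and 10.3% of genes were called. By distance 1 call became 0 without the replicate block and 3 with cell volume as the offset, where 16.8% of genes were called higher. The log2 ratio of Ube2c, Tpx2 and Stmn1, 2.81, became 3.077 with hepatocytes of 0 erythroid marker counts, 2.148 per cell volume and 2.401 with markers from at least 1 gene, the last added after the data were seen, and ran from 2.71 to 2.91 with 1 section left out. Apart from the settings stated as differing, the cause was not tested. Of 130 fitted alternatives of 10 called gene and contrast pairs, 123 kept direction and call, 7 lost the call and 0 reversed. Of their 20 single-section values, which have no test, 0 reversed and 3 lay farther from the value from both sections than the SD between sections, all without section 1: Tpx2 over mesenchymal cells to 1.62, Ube2c over monocytes and neutrophils to 7.76 and Mki67 near minus far to 1.34. With 2 sections this SD grows with the gap between them, so a value within it shows no agreement. Tpx2 over hepatocytes lay within it, at 0.40 in section 2 alone and 2.95 in section 1 alone. Of 548 alternatives of 39 uncalled pairs, 21 gained a call, 66 changed sign and 0 did both. The share of all tested genes called also differed between settings. For erythroid cells over hepatocytes it was 21.6% in either direction in the main fit. It was 10.3% without the block and 37.9% with cell volume as the offset. Erythroid contrasts could not be fitted with at least 5 marker counts or without Klf1 as a marker, nor monocyte and neutrophil contrasts with cells of at least 20 counts, since a group fell under 50 cells. With 1 section there were no residual degrees of freedom and no count of calls. Depth limits section 2 most, where erythroid cells held 2062 gene counts.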

Other observations

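Within the erythroid group, cells with a Klf1 count held Mki67 at 751 and 194 per 10000 gene counts in sections 1 and 2, against 714 and 159 in cells without one. Klf1 encodes an erythroid transcription factor. Ube2c stood at 87.8 and 154 with Klf1 against 48.7 and 176 without, and Stmn1 at 40.6 and 134 against 73.0 and 52.9. The direction of Ube2c and of Stmn1 differed between the sections, and the sets without Klf1 held 39 and 26 cells.

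The median DNA stain of hepatocytes with at least 1 count of Mki67, Ube2c, Tpx2, Cdk1 or Stmn1 was 1.41 and 1.28 times that of hepatocytes with 0. Their median volume was 1.30 and 1.13 times and their median gene count 1.72 and 1.32 times as high. Per volume the stain ratio was 1.02 and 1.14. In erythroid cells the stain ratio was 0.933 in section 1 and 1.33 in section 2.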
